A study of Homo sapiens with 12 samples.

Results

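The genes described here encode the transcription factor complex built on TAL1, LYL1 and LMO2. They are 9 of the 56266 genes in the deposited tables and were taken by symbol: TAL1 and LYL1 (tissue-restricted basic helix-loop-helix factors), LMO2 (a LIM-only bridging protein), LDB1 (the LIM-domain-binding scaffold), TCF3, TCF4 and TCF12 (the E proteins, which pair with TAL1 or LYL1), and SSBP2 and SSBP3 (single-stranded DNA-binding proteins that bind LDB1). Each of the 9 was found in 10 of 10 libraries and each passed the filter on low values.

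RNA-Seq was made from H1, an established human embryonic stem cell (hESC) line, and from H1-GATA2-/-, 1 clone of H1. In that clone a neomycin resistance cassette driven by the PGK promoter disrupted exon 3 of both GATA2 alleles. Hemogenic endothelial cells (HEs, CD34+CD31+CD43-) were sorted at day 8 and hematopoietic progenitor cells (HPCs, CD34+CD43+) at day 9 of co-culture with OP9, a mouse stromal line, with no other treatment named for these samples. The 5 groups, each with 2 libraries, were undifferentiated GATA2-/- hESCs, WT HEs, GATA2-/- HEs, WT HPCs and GATA2-/- HPCs. WT hESCs were not analysed here, so each comparison with hESCs is within the GATA2-/- clone. Nothing in the labels says that replicates came from separate cultures, so p-values measure only the spread between these libraries.

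In blood and endothelial cells, TAL1 or LYL1 pairs with an E protein on the DNA sequence called an E-box, and LMO2 and LDB1 link this pair to a GATA factor bound nearby at a GATA motif. SSBP proteins are known to protect LDB1 from degradation, and ID proteins, which lack a DNA-binding region, take E proteins out of such pairs. TAL1 and LMO2 are known as factors without which the embryo makes no blood, while E proteins, LDB1 and SSBPs are made in many tissues.

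Values are TPM, a share of the transcripts of a library that is scaled for transcript length and to a fixed total, so levels may be compared between genes. Read depth is unknown, and in bulk RNA fewer cells of a type and less RNA per cell cannot be told apart. Differences are given on the log2(TPM + 1) scale with the standard error (SE) or the 95% confidence interval (CI), and a gene was called where the Benjamini-Hochberg adjusted p of limma over all 21543 tested genes was under 0.05. Because 1 was added to each TPM, changes of low genes are understated.

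The library labels were compared with marker genes before the members were read. GATA2, the targeted gene, was at 106.80 and 78.03 TPM in WT HEs and 110.93 and 94.06 TPM in HEs labelled GATA2-/-, and at 290.08 and 204.17 TPM in WT HPCs against 112.47 and 83.82 TPM in HPCs labelled GATA2-/-. A gene-level TPM counts any transcript of the locus, so it does not check the genotype, and GATA2-/- below means the libraries so labelled. The authors report disruption of both alleles by genomic PCR and Southern blot. They also state that an aberrant mRNA might be made, and that CD34+ cells of both lines express GATA2. The summed TPM of 8 endothelial markers was 2654 to 3164 in HEs, 535 to 778 in HPCs and 66.0 to 82.4 in hESCs, and that of 7 pan-hematopoietic markers was 555 to 798 in HPCs and 290.1 to 372 in HEs. SPN, which encodes CD43, was at 97.98 to 107.93 TPM in HPCs and 1.76 to 8.81 TPM in HEs, while PTPRC (CD45) did not exceed 3.09 TPM in any library and was listed at 0 in the 4 HE libraries. Other cell types moved with the groups. The erythroid sum (7 markers) was 2068 to 5981 TPM in HPCs, 52.39 and 76.95 TPM in WT HEs and 19.4 and 35.8 TPM in GATA2-/- HEs, and the megakaryocyte sum (4 markers) was 887 to 1654, 104 and 123, and 31.1 and 54.4 TPM in the same order. The macrophage and granulocyte sum (5 markers) was 171 to 434 TPM in HPCs and 22.9 to 43.1 TPM in HEs. Most of it came from AIF1, while CD14 was listed at 0 in HPCs and MPO did not exceed 3.82 TPM. The mesenchymal sum (6 markers) was 321 and 452 TPM in WT HEs, 210.2 and 319 TPM in GATA2-/- HEs and 57.6 to 151 TPM in HPCs. That of 7 hESC markers was 224 to 375 TPM after differentiation against 5018 and 5853 TPM in hESCs. After differentiation it came mostly from LIN28A (97.11 to 244.28 TPM), DNMT3B and DPPA4. POU5F1 then did not exceed 3.02 TPM, L1TD1 1.95 TPM, SOX2 0.57 TPM and NANOG 0.56 TPM. Mitochondrial transcripts held 15.1% and 14.8% of TPM in GATA2-/- HPCs and 6.29% to 9.61% in the other libraries. The part of these differences in the results below was not tested.

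Because a GATA factor sits beside the TAL1 or LYL1 pair on its target genes, and GATA2 is the gene disrupted here, the members' own promoters were searched for the GATA motifs AGATAA and TGATAA on both strands. RefSeq promoter windows (300 bases around a transcript start, GRCh38.p14) were matched for 8 of the 9 members, all except LMO2, and numbered 26. TCF4 had 10 of them, and windows of the same gene can overlap, as those of SSBP2 did. Of the 26 windows, 4 held AGATAA or TGATAA, a share to be read against 16.3% of all 34943 windows. At least 2 such motifs were in 1 window, against 2.89% of all windows. That window was the LYL1 promoter. The 5 matches are shown as 30 bases each on the gene's strand, with the motif in capitals and its first base placed by its distance from the transcript start (TTATCT and TTATCA are AGATAA and TGATAA read on the other strand).
TAL1, 35 bases before the start (chr1:47232353-47232382, minus strand): cgcggcagtgccTTATCTctgcggcgcaca
LYL1, 27 bases before the start (chr19:13102868-13102897, minus strand): cagccaggctccTTATCAggcgcggccagg
LYL1, 2 bases after the start (chr19:13102839-13102868, minus strand): gcagcctggcccTTATCTgcactgggccag
TCF4, 116 bases before a start (chr18:55636056-55636085, minus strand): agaatctttctcTTATCTtgtttgtttaca
TCF4, 210 bases before another start (chr18:55404188-55404217, minus strand): agagcagtctacAGATAAaaattgggttgt
The E-box CANNTG was in 12 of the 26 windows (68.7% of all windows) and its form CAGATG in 4 (14.7% of all windows). A match describes the letters of a window and is not evidence of a bound site.

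TAL1, LYL1 and LMO2 were near 0 in hESCs and high in every differentiated library, HEs as well as HPCs. TAL1 (chr1:47681962-47697897, minus strand, GRCh37, as are all gene positions below) was at 0.20 TPM and listed at 0 in the 2 GATA2-/- hESC libraries, at 188.80 and 156.62 TPM in WT HEs, at 260.99 and 155.59 TPM in GATA2-/- HEs, at 211.56 and 161.60 TPM in WT HPCs and at 252.83 and 185.72 TPM in GATA2-/- HPCs. The 4 differentiated groups overlapped, each with its neighbour in the order of the means. TAL1 shares 845 of its 5705 exonic bases with an antisense long noncoding RNA, ENSG00000226252, which did not exceed 20.72 TPM, and the counting is not stated to use strand, so reads from the shared bases cannot be told apart.

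LYL1 (chr19:13209847-13213975, minus strand), the close relative of TAL1 whose promoter window held both GATA motifs, was at 1.42 and 0.15 TPM in GATA2-/- hESCs. It reached 153.97 and 175.47 TPM in the WT HE libraries, 162.04 and 120.62 TPM in GATA2-/- HEs, 293.43 and 288.25 TPM in WT HPCs, and 166.00 and 266.92 TPM in GATA2-/- HPCs. The WT HPC libraries were the highest and lay close together, and the GATA2-/- HPC libraries lay far apart, from within the HE range to near the WT HPCs. The ratio of LYL1 to TAL1 TPM was 0.816 and 1.12 in WT HEs, 0.621 and 0.775 in GATA2-/- HEs, 1.39 and 1.78 in WT HPCs, and 0.657 and 1.44 in GATA2-/- HPCs.

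LMO2 (chr11:33880122-33913623, minus strand), the bridge that touches both the helix-loop-helix pair and LDB1, was at 1.43 and 0.69 TPM in GATA2-/- hESCs. It was at 197.80 and 188.00 TPM in WT HEs, 275.44 and 237.72 TPM in GATA2-/- HEs, 266.45 and 272.17 TPM in WT HPCs, and 364.52 and 284.50 TPM in GATA2-/- HPCs. In the order of the group means, only GATA2-/- HEs and WT HPCs overlapped. In HE and HPC libraries TAL1, LYL1 and LMO2 each were at or above 92.65% or more of the genes that reached 1 TPM in that library.

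The scaffold and the E proteins were already present in hESCs. LDB1 (chr10:103866246-103880125, minus strand) was at 75.19 and 67.07 TPM in GATA2-/- hESCs, 106.43 and 88.58 TPM in WT HEs, 99.13 and 80.42 TPM in GATA2-/- HEs, 217.65 and 185.33 TPM in WT HPCs, and 202.57 and 213.94 TPM in GATA2-/- HPCs. The 4 HPC libraries thus lay above the 4 HE libraries, and those above the 2 hESC libraries.

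TCF3 (chr19:1609290-1652614, minus strand), which encodes the E proteins E12 and E47, was the most abundant of the 3 E protein genes in each library. It was found at 224.16 and 214.02 TPM in GATA2-/- hESCs, 192.53 and 194.39 TPM in WT HEs, 187.48 and 214.94 TPM in GATA2-/- HEs, 188.26 and 112.23 TPM in WT HPCs, and 147.95 and 126.90 TPM in GATA2-/- HPCs. TCF4 (chr18:52889416-53332018, minus strand; the E protein E2-2) ranged from 24.24 to 49.98 TPM and TCF12 (chr15:57210821-57591479, plus strand; the E protein HEB) from 24.62 to 47.60 TPM over the 10 libraries. TCF3 gave 63.8% to 81.1% of the summed TPM of the 3 genes in each library. The share of TCF4 was 8.77% and 10.1% in hESCs and 15.1% to 19.8% in the other libraries.

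SSBP2 (chr5:80708623-81047616, minus strand) was high in HEs and low on both sides of them. It was at 38.02 and 26.83 TPM in GATA2-/- hESCs, 86.93 and 95.46 TPM in WT HEs, 110.75 and 107.39 TPM in GATA2-/- HEs, 34.86 and 25.81 TPM in WT HPCs, and 39.55 and 29.08 TPM in GATA2-/- HPCs. SSBP3 (chr1:54691105-54879152, minus strand) varied less, from 72.37 TPM in a WT HPC library to 143.47 TPM in a WT HE library; 33 of its exonic bases overlap MRPL37 on the other strand.

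**Figure D1:**
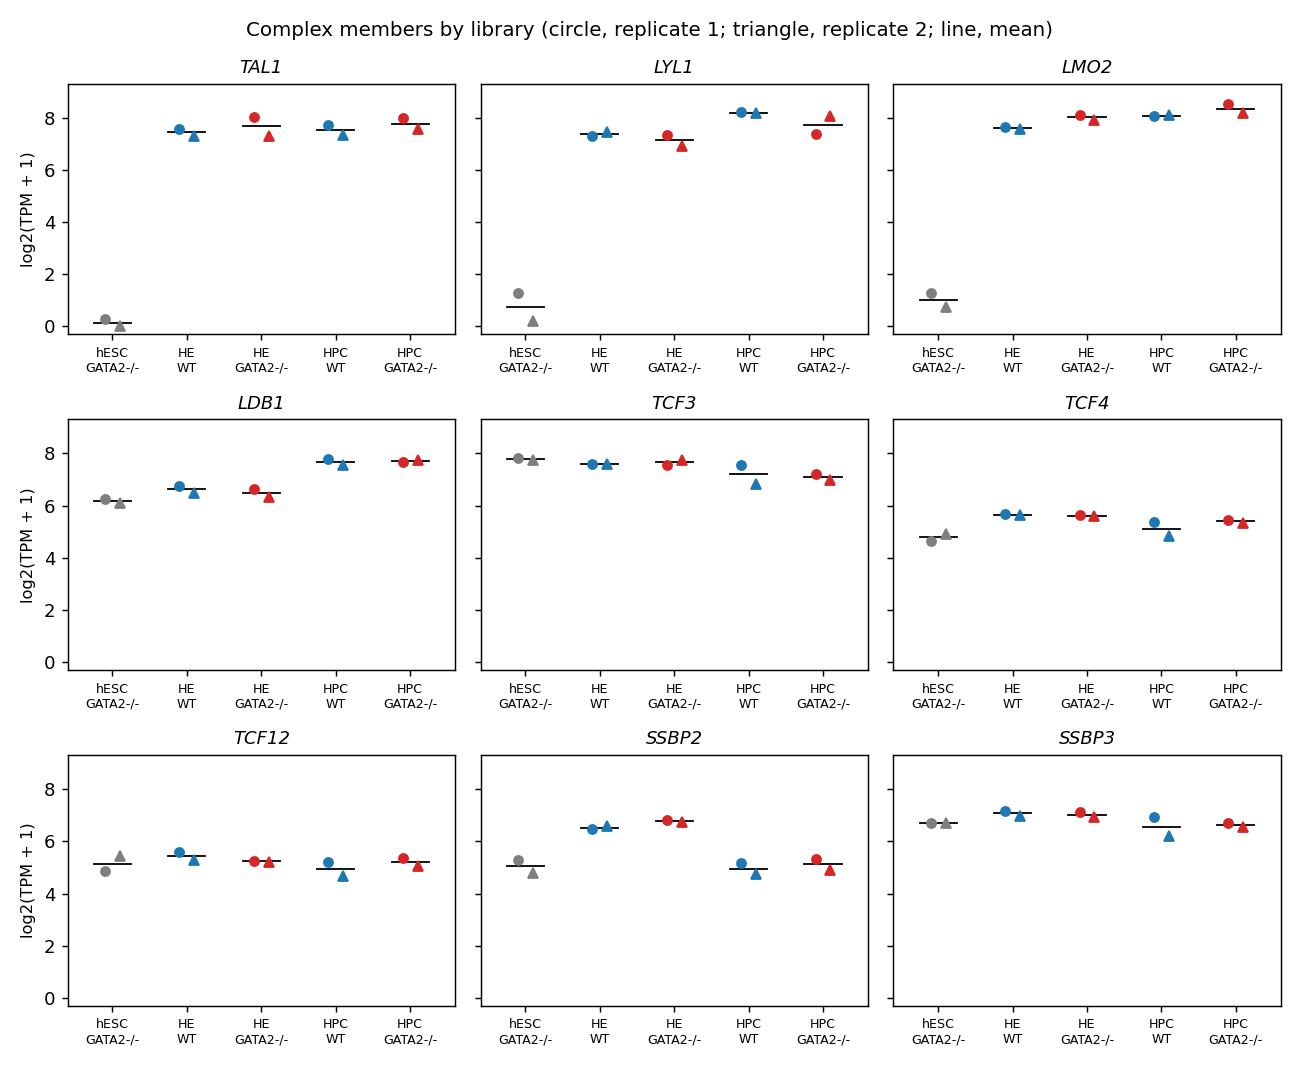
Level of each of the 9 members as log2(TPM + 1) in the 10 libraries, by group (blue, WT; red, GATA2-/- HEs and HPCs; grey, GATA2-/- hESCs), with the replicates as points and their mean as a line. TAL1, LYL1 and LMO2 step up from the hESC libraries to all others, LDB1 is highest in the 4 HPC libraries, and SSBP2 is highest in the 4 HE libraries.

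The first comparison asked how the members changed as the GATA2-/- clone differentiated. In GATA2-/- HEs, 5 of the 9 members were called higher than in GATA2-/- hESCs and 0 lower, where 30% of all tested genes were called, 13.9% higher and 16.1% lower. TAL1 rose by 7.53 (SE 0.28, adjusted p = 8.43e-07), LYL1 by 6.40 (SE 0.35, adjusted p = 5.65e-06) and LMO2 by 6.99 (SE 0.20, adjusted p = 2.99e-07). SSBP2 rose by 1.74 (SE 0.23, adjusted p = 0.000694) and TCF4 by 0.84 (SE 0.21, adjusted p = 0.0149). The call of TCF4 was lost without hESC replicate 1 and without either HE replicate. The median difference of the members was 0.84, beside -0.02 over all tested genes.

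In GATA2-/- HPCs, 4 members were called higher than in GATA2-/- hESCs and 0 lower, where 30.6% of all tested genes were called, 14.2% higher and 16.4% lower. They were TAL1, LYL1 and LMO2, which rose by 7.63, 6.99 and 7.32, and LDB1, which rose by 1.54 (SE 0.17, adjusted p = 0.000228; 2.93 times the hESC mean). SSBP2 did not pass there, with a difference of 0.08 (95% CI -0.45 to 0.62). TCF3 at -0.67 (adjusted p = 0.0502) and TCF4 at 0.62 (adjusted p = 0.0516) lay at the threshold. Both comparisons use the same hESC libraries. The median of the members was 0.62 beside 0 over all tested genes.

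The next comparison asked which members differed between HEs and HPCs. LDB1 rose and SSBP2 fell in each genotype, while TAL1 showed a smaller difference than LYL1 and LMO2. In WT, LDB1 rose by 1.04 (SE 0.17, adjusted p = 0.0058; 2.07 times the HE mean), and in GATA2-/- it rose by 1.21 (SE 0.17, adjusted p = 0.00229; 2.32 times). SSBP2 fell by 1.57 in WT (SE 0.23, adjusted p = 0.00392; 0.333 times the HE mean) and fell by 1.66 in GATA2-/- (SE 0.23, adjusted p = 0.00243; 0.315 times). For both genes, the 4 HE libraries and the 4 HPC libraries did not overlap, which held for 9.48% of all tested genes in the higher and 13.5% in the lower direction.

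Those 2 were the members called in either genotype, 1 higher and 1 lower each time, where 9.91% of all tested genes were called in WT (3.32% higher, 6.59% lower) and 12.7% in GATA2-/- (5.5% higher, 7.24% lower). At those shares about 1 of 9 genes would be called, beside 2 of 9 members here, and this count was not tested. With only the 4 libraries of a comparison in the fit, 0 of 21543 genes were called in either genotype (4423 in WT and 5040 in GATA2-/- at an unadjusted p under 0.05), and LDB1 and SSBP2 had adjusted p of 0.097 and 0.0852 in WT and 0.0647 and 0.0628 in GATA2-/-. The WT call of LDB1 was also lost without WT HE replicate 2 (adjusted p = 0.057).

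Within replicate numbers, which in HEs and HPCs also separate the libraries whose headers carry an extra tag, LDB1 differed by 1.03 and 1.06 in WT and by 1.02 and 1.40 in GATA2-/-. SSBP2 differed by -1.29 and -1.85 in WT and by -1.46 and -1.85 in GATA2-/-. The sizes thus varied with the replicate number but not the direction. Endothelial and blood marker sums also separated the 4 HE from the 4 HPC libraries, as given above, and their part in these differences was not tested.

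LYL1 was 0.82 higher in WT HPCs than in WT HEs (95% CI 0.03 to 1.61, adjusted p = 0.205) and LMO2 0.48 higher (95% CI 0.02 to 0.94, adjusted p = 0.204). In GATA2-/- the differences were 0.59 (95% CI -0.21 to 1.38) and 0.33 (95% CI -0.13 to 0.79). Neither passed the threshold in either genotype, and the HPC libraries lay above the HE libraries in each, as they did for 20.2% of all tested genes in WT and 26.6% in GATA2-/-. TAL1 differed by 0.10 in both genotypes (95% CI -0.53 to 0.73 in each), an interval that leaves room for a change of either sign.

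The E proteins and SSBP3 were not called between HEs and HPCs. In WT the differences were -0.41 for TCF3, -0.57 for TCF4, -0.52 for TCF12 and -0.52 for SSBP3 (adjusted p of 0.136 to 0.345), and in each case both HPC libraries lay below both HE libraries, as they did for 26.1% of all tested genes. These values leaned on 1 library: without WT HPC replicate 1, TCF3 and SSBP3 were called as well, making 4 members. In GATA2-/- the differences were -0.55, -0.22, -0.02 and -0.40 in the same order, and the libraries did not overlap for TCF3, TCF4 and SSBP3, as for 24.4% of all tested genes in that direction. Quantile normalization and rescaling without mitochondrial and globin genes turned the sign of the TCF12 value.

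Opposite to LDB1, its paralog LDB2 was high in HEs and low in HPCs. LDB2 was at 172.86 and 202.58 TPM in WT HEs and 211.09 and 258.90 TPM in GATA2-/- HEs, against 16.47 and 5.94 TPM in WT HPCs and 26.11 and 13.88 TPM in GATA2-/- HPCs. It fell by 4.09 in WT (SE 0.44, adjusted p = 0.00084) and fell by 3.55 in GATA2-/- (SE 0.44, adjusted p = 0.00127). LDB1 therefore gave 23.7% to 38.1% of the summed LDB TPM in HEs, 88.6% to 96.9% in HPCs and 72.3% to 81.5% in hESCs.

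LMO4, another LIM-only gene whose product binds LDB1, was at 53.07 and 42.71 TPM in WT HEs, 35.59 and 25.40 TPM in GATA2-/- HEs, 319.53 and 252.10 TPM in WT HPCs, and 142.30 and 101.71 TPM in GATA2-/- HPCs. From HEs to HPCs it rose by 2.55 in WT (SE 0.24, adjusted p = 0.000583) and by 1.96 in GATA2-/- (SE 0.24, adjusted p = 0.00126). The share of LMO2 in the summed LMO2 and LMO4 TPM was 78.9% and 81.5% in WT HEs, 88.6% and 90.4% in GATA2-/- HEs, 45.5% and 51.9% in WT HPCs, and 71.9% and 73.7% in GATA2-/- HPCs. Of the 8 HE and HPC libraries, LMO2 was thus the smaller part only in 1 WT HPC library.

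SSBP4 did not pass between HEs and HPCs, with differences of -0.27 (95% CI -0.81 to 0.28) in WT and -0.22 (95% CI -0.76 to 0.33) in GATA2-/-. SSBP2 gave 26.1% to 34.0% of the summed TPM of SSBP2, SSBP3 and SSBP4 in HEs and 12.8% to 17.9% in HPCs. Of the 6 listed paralogs, 5 were tested (LMO1 did not pass the filter on low values), and in each genotype 1 was called higher (LMO4) and 1 lower (LDB2). Across all tested genes, 9.91% were called in WT and 12.7% in GATA2-/-.

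**Figure D2:**
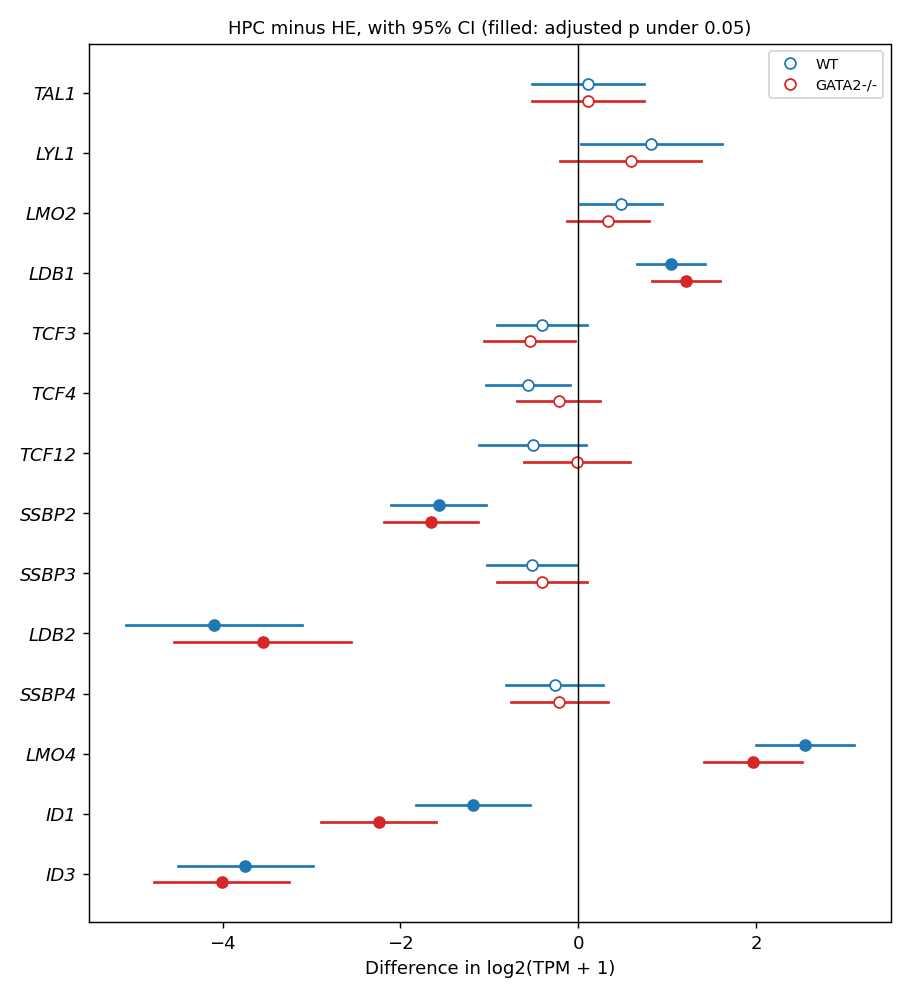
Difference between HPCs and HEs in log2(TPM + 1) for the 9 members, 3 paralogs and 2 ID genes, in WT (blue) and GATA2-/- (red), with 95% CI as bars and filled points where the adjusted p of limma was under 0.05. LDB1 and LMO4 lie to the right and SSBP2, LDB2, ID1 and ID3 to the left in both genotypes, while TAL1 sits at 0.10 in both.

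The ID genes, whose products compete for the E proteins, changed with stage as well. ID3 was at 373.41 and 496.25 TPM in WT HEs, 436.26 and 623.53 TPM in GATA2-/- HEs and 22.04 to 43.87 TPM in the 4 HPC libraries. It fell by 3.75 in WT (SE 0.33, adjusted p = 0.000533) and fell by 4.01 in GATA2-/- (SE 0.33, adjusted p = 0.000314). ID1 was at 170.31 and 243.94 TPM in WT HEs, 357.41 and 398.52 TPM in GATA2-/- HEs and 69.91 to 102.54 TPM in HPCs, and fell by 1.18 in WT (SE 0.28, adjusted p = 0.0324) and fell by 2.24 in GATA2-/- (SE 0.28, adjusted p = 0.0014).

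ID2 and ID4 did not pass in either genotype, so 2 of 4 ID genes were called lower in each. Among all tested genes, 6.59% in WT and 7.24% in GATA2-/- were called lower. ID2 went the other way, with both HPC libraries above both HE libraries in each genotype. It was at 190.32 and 203.13 against 136.86 and 170.27 TPM in WT, and 221.65 and 168.59 against 143.32 and 126.94 TPM in GATA2-/-. Such an order held for 20.2% of all tested genes in WT and 26.6% in GATA2-/-. ID2 gave most of the summed ID TPM in each HPC library. The summed ID TPM was 0.820 and 0.827 times the summed E protein TPM in GATA2-/- hESCs. The ratio was 2.35 and 3.24 in WT HEs, 3.43 and 3.86 in GATA2-/- HEs, 1.28 and 1.86 in WT HPCs, and 1.41 and 1.45 in GATA2-/- HPCs. HE libraries were thus the highest in ID relative to E protein transcripts, and HPC libraries lay between them and hESCs.

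**Figure D3:**
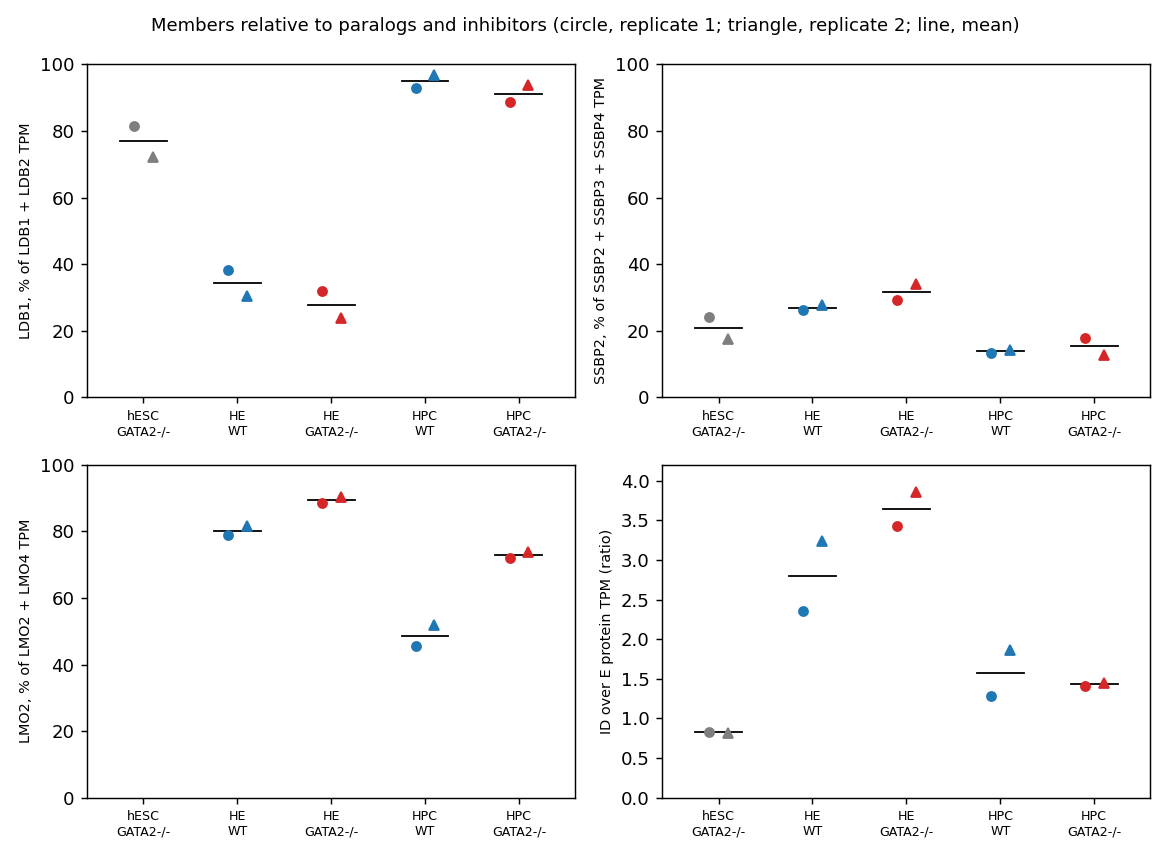
Members relative to paralogs and inhibitors in each library, as LDB1 in percent of LDB1 and LDB2 TPM, SSBP2 in percent of SSBP2, SSBP3 and SSBP4 TPM, LMO2 in percent of LMO2 and LMO4 TPM (not drawn for hESCs, where LMO2 is near 0), and the ratio of summed ID to summed E protein TPM; points are replicates and lines their mean. LDB1 holds at most 38.1% of its pair in HEs and at least 88.6% in HPCs, and the ID ratio is at least 2.35 in HEs and at most 1.86 in HPCs.

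Factors that meet the complex on DNA also changed with stage. The list of 6 GATA, ETS and RUNX partners includes GATA2, the targeted gene. Of these 6, 3 were called higher and 2 lower in WT HPCs than in WT HEs, and 2 higher and 2 lower in GATA2-/-. For all tested genes the shares were 3.32% higher and 6.59% lower in WT, and 5.5% higher and 7.24% lower in GATA2-/-. GATA1 rose by 3.62 in WT (SE 0.31, adjusted p = 0.000434) and by 5.76 in GATA2-/- (SE 0.31, adjusted p = 0.000158), and ERG fell by 2.72 (SE 0.32, adjusted p = 0.00122) and fell by 2.36 (SE 0.32, adjusted p = 0.00196). FLI1, an ETS factor, was at 164.44 to 233.27 TPM in the 8 HE and HPC libraries.

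Of 10 coregulators recruited by such complexes, 1 was called higher in WT and 2 in GATA2-/-, and 0 were called lower in either. Over all tested genes, 9.91% were called in WT (3.32% higher) and 12.7% in GATA2-/- (5.5% higher). The coregulator counts were not tested against these shares. CBFA2T3 (ETO2), a corepressor that binds the complex, rose by 1.70 in WT (SE 0.37, adjusted p = 0.0222) and by 2.82 in GATA2-/- (SE 0.37, adjusted p = 0.00177). CREBBP, a histone acetyltransferase, rose by 0.96 in GATA2-/- (SE 0.24, adjusted p = 0.0315) and differed by -0.22 (95% CI -0.76 to 0.32) in WT.

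Among 8 blood genes known as targets of the complex, 4 were called higher and 1 lower in WT, and 5 higher and 1 lower in GATA2-/-. Shares of all tested genes were 3.32% higher and 6.59% lower in WT, and 5.5% higher and 7.24% lower in GATA2-/-. Examples were ALAS2, the first enzyme of erythroid heme synthesis, which rose by 3.90 in WT (adjusted p = 0.000821) and by 6.40 in GATA2-/- (adjusted p = 0.000158), and KIT, the stem cell factor receptor, which fell by 2.38 (adjusted p = 0.00103) and fell by 1.88 (adjusted p = 0.00248). Of the 3 endothelial targets, 2 were tested and both were called lower in each genotype, beside the same shares of all tested genes. CDH5, the cadherin of endothelial junctions, fell by 2.75 in WT (adjusted p = 0.00262) and fell by 2.48 in GATA2-/- (adjusted p = 0.00346). In both GATA2-/- HEs and GATA2-/- HPCs against GATA2-/- hESCs, 6 of 6 partners were called higher, where 13.9% and 14.2% of all tested genes were. GATA2 is among these partners (4.53 higher in HEs), and its TPM counts any transcript of the disrupted locus.

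The comparison of genotypes asked whether the members differed where GATA2 was disrupted. In HEs, 0 of the 9 members were called (0 at an unadjusted p under 0.05), where limma called 0.0186% of all tested genes (0.00464% higher, 0.0139% lower). In HPCs, 0 of 9 were called (0 at an unadjusted p under 0.05), where 0.0603% of all tested genes were called (0.0279% higher, 0.0325% lower). An unadjusted p of limma under 0.05 was found for 1045 of 21543 genes in HEs and 1925 of 21543 in HPCs. With 2 libraries a group the intervals were wide, so a member of unchanged level cannot be told from one that changed within them.

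For TAL1, the GATA2-/- minus WT difference was 0.23 in HEs and 0.23 in HPCs, each with a 95% CI of -0.40 to 0.86. The TAL1 libraries of the genotypes overlapped in both stages. For LYL1 it was -0.23 (95% CI -1.02 to 0.56) in HEs and -0.46 (95% CI -1.26 to 0.33) in HPCs. Both GATA2-/- HPC libraries had less LYL1 than both WT HPC libraries, and within replicate numbers the HPC difference was -0.82 and -0.11. LMO2 was 0.41 higher (95% CI -0.06 to 0.87) in HEs and 0.26 higher (95% CI -0.21 to 0.72) in HPCs. It was the member whose GATA2-/- libraries lay above the WT libraries in both stages, with within-number differences of 0.48 and 0.34 in HEs and 0.45 and 0.06 in HPCs.

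For the scaffold, the E proteins and the SSBPs, each interval also included 0. The differences in HEs were -0.12 (95% CI -0.50 to 0.27) for LDB1, 0.05 (95% CI -0.46 to 0.56) for TCF3 and -0.04 (95% CI -0.51 to 0.43) for TCF4. In HPCs they were 0.05 (95% CI -0.33 to 0.44), -0.08 (95% CI -0.59 to 0.42) and 0.31 (95% CI -0.16 to 0.78). The sign of the TCF3 value in HPCs turned when libraries were rescaled without mitochondrial and globin genes. SSBP2 differed by 0.26 (95% CI -0.28 to 0.79) in HEs and 0.17 (95% CI -0.36 to 0.70) in HPCs, SSBP3 by -0.05 and 0.07, and TCF12 by -0.22 and 0.28.

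In HEs the genotypes did not overlap for LMO2 and SSBP2 (both higher in GATA2-/-) and for TCF12 (lower). Such a pattern held for 13.8% of all tested genes in the higher direction and 16.5% in the lower. In HPCs they did not overlap for LMO2 (higher) and LYL1 (lower), where 19.7% and 13% of all tested genes did so. The median of the 9 members was -0.04 in HEs beside -0.01 over all tested genes, and 0.17 in HPCs beside 0.05. In HEs the erythroid, megakaryocyte, mesenchymal, macrophage and granulocyte, and pan-hematopoietic marker sums were lower in both GATA2-/- libraries than in both WT libraries. The endothelial sum was higher in both (3164 and 2833 against 2654 and 2693 TPM), and the hESC marker sum overlapped. In HPCs the pan-hematopoietic sum (555 and 621 against 798 and 726 TPM) was lower in both GATA2-/- libraries. So were the megakaryocyte and the macrophage and granulocyte sums, while the other sums overlapped. ITGA2B (736.13 and 1140.18 against 1147.41 and 1257.66 TPM) held most of the former. AIF1 (104.51 and 202.95 against 227.80 and 344.21 TPM) held most of the latter. Of 4 megakaryocyte markers, 2 lay lower in both GATA2-/- HPC libraries and 0 higher. Of 3 tested macrophage and granulocyte markers, 2 lay lower, and LYZ lay higher (56.40 and 59.89 against 45.54 and 55.55 TPM). GATA2-/- HPCs also held more mitochondrial transcripts.

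The difference between the genotype differences in HPCs and HEs was not called for any of the 9 members (0 at an unadjusted p under 0.05), where limma called 0% of all tested genes (1281 of 21543 at an unadjusted p under 0.05). It ranged from -0.23 for LYL1 to 0.50 for TCF12, with intervals that all included 0. For TAL1 it was 0 to 2 decimals (95% CI -0.89 to 0.89). The median was 0 over the members and 0.08 over all tested genes. Genotypes that did not overlap in HEs and in HPCs with opposite directions were seen in 0 of the 9 members and in 4.17% of all tested genes.

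**Figure D4:**
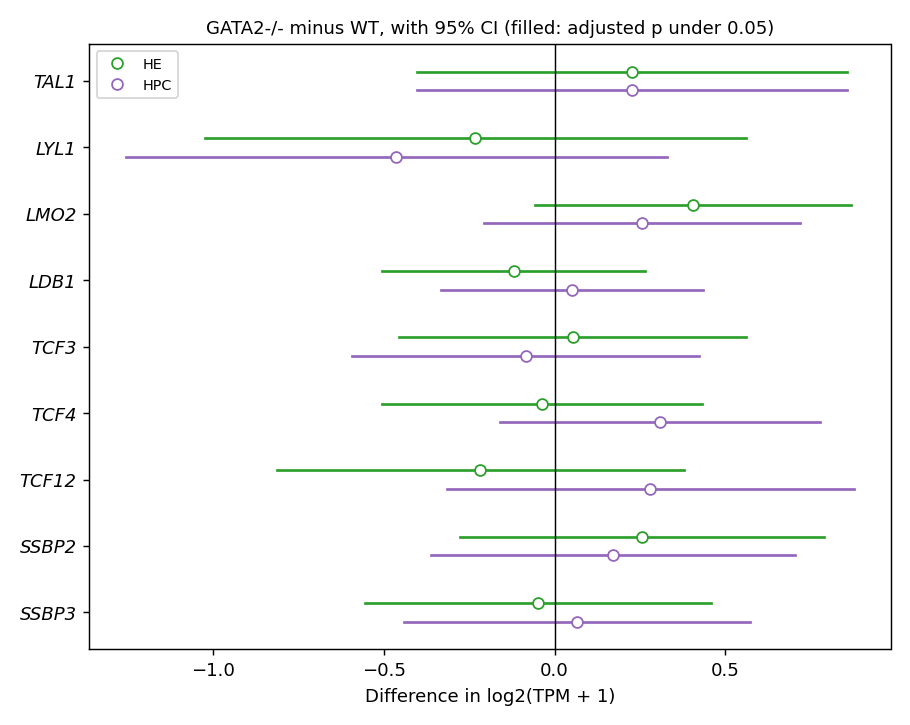
Difference between GATA2-/- and WT in log2(TPM + 1) for the 9 members in HEs (green) and HPCs (purple), with 95% CI as bars. Every point is open (adjusted p of limma of 0.05 or more) and every interval includes 0, with LMO2 to the right of 0 in both stages and LYL1 to the left.

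Around the members, 0 of the 5 tested paralogs, 0 of 4 ID genes, 0 of 6 partners, 0 of 10 coregulators, 0 of 8 blood targets and 0 of 2 tested endothelial targets were called between genotypes by limma in either stage. At an unadjusted p under 0.05 the counts in HEs were 1, 1, 2, 1, 4 and 0, and in HPCs 1, 0, 1, 1, 1 and 0, in the same order. Among all 21543 tested genes, 1045 in HEs and 1925 in HPCs had such a p, and the list counts were not tested against these. LMO4 had less TPM in both GATA2-/- libraries than in both WT libraries in each stage, with differences of -0.65 in HEs (95% CI -1.19 to -0.10, adjusted p = 0.935) and -1.23 in HPCs (95% CI -1.78 to -0.68, adjusted p = 0.205). KIT was at 21.81 and 23.18 TPM in WT HEs, 45.18 and 40.10 TPM in GATA2-/- HEs, 4.02 and 3.04 TPM in WT HPCs, and 8.48 and 13.72 TPM in GATA2-/- HPCs. Its differences of 0.89 in HEs (adjusted p = 0.792) and 1.39 in HPCs (adjusted p = 0.205) did not pass.

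In HEs the lowest p among the partners was that of GATA1, at 18.36 and 12.05 TPM in WT and 2.78 and 1.37 TPM in GATA2-/- (difference -2.41, SE 0.31, adjusted p = 0.0814). Among coregulators it was that of CBFA2T3, at 30.82 and 19.34 TPM against 14.67 and 6.64 TPM (difference -1.22, SE 0.37, adjusted p = 0.792). ID1 was 0.89 higher (95% CI 0.24 to 1.53, adjusted p = 0.814). In each of these cases the genotypes did not overlap, and the erythroid marker sum moved with GATA1.

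The genes whose pattern over the 10 libraries was most like TAL1, LYL1 and LMO2 were found by the root-mean-square (RMS) difference of log2(TPM + 1) after each gene was centred on its mean. For TAL1 they were LMO2 (0.30), FLI1 (0.31), LAPTM5 (0.37), LYL1 (0.56) and LCP2 (0.58). For LYL1 they were ARHGDIB (0.31), LAPTM5 (0.41), LCP2 (0.43), LMO2 (0.43) and TIMP3 (0.52), and TAL1 came at rank 6 with 0.56. For LMO2 they were TAL1 (0.30), LAPTM5 (0.40), LCP2 (0.41), FLI1 (0.43) and LYL1 (0.43). Among 21543 tested genes, TAL1 and LMO2 were thus each other's nearest. The measure is a description over libraries of 3 stages, and it is set mainly by the step from hESCs to the other libraries. FLI1, for example, was at 0.11 and 0.22 TPM in hESCs, and LAPTM5 at 0.67 and 0.47 TPM in hESCs and 233.19 to 437.39 TPM in the others.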

How the data were processed

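RNA-Seq of sorted H1-derived cells was made by the authors from TruSeq libraries read as short single-end reads on a MiSeq, with adapters trimmed by Trimmomatic and reads mapped to hg19 with Bowtie. The submitters' processing notes also name RSEM and, beside hg19, the mouse build mm10, and how reads from OP9 cells were treated is not given in the sources used here. The deposited values are TPM per Ensembl gene, 1 library a table and replicates not pooled, summing to 998299 to 999106 per library, so read depth is unknown and no counting error can be given. The annotation release is not given in the sources used here.

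From these TPM, log2(TPM + 1) of the 21543 genes that reached 1 TPM in 2 or more libraries was fitted with limma 3.58.1 in R 4.3.3 (10 libraries, 5 groups, eBayes with a trend). The fitting script was checked on simulated data with known changes. A count test was not run because TPM keeps no counts. Python 3.11.15, numpy 2.4.6, pandas 2.3.3 and matplotlib 3.10.9 were used for the rest. Gene positions are from GENCODE lifted to GRCh37 and promoter windows from RefSeq (GRCh38.p14). Pairs of libraries with identical values numbered 0.

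The members, gene lists and tests were chosen with earlier results of these data known. All 9 members were named in every comparison, from each other list at most the 4 genes with the smallest p, and for TAL1, LYL1 and LMO2 the 5 most alike genes. Alternatives were another pseudocount, no filter, quantile normalization, rescaling without mitochondrial and globin genes, eBayes without a trend, the replicate number as a block, only the libraries of a comparison, and each library left out. WT hESCs were not analysed here. A gene that this rule would name is not reported here.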

Additional observations from a re-analysis of the deposited data

Results flagged for a closer look

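In 3 genes of the listed pathway groups, both GATA2-/- libraries lay on one side of both WT libraries in HEs and on the other side in HPCs, a pattern that 4.17% of all tested genes showed. The groups held 9 members, 5 paralogs, 4 ID genes, 6 partners, 10 coregulators, 8 blood targets and 2 endothelial targets that were tested. At that share some such genes would be found in lists of this size, and the count was not tested. None of the 3 passed the test of the difference between the genotype differences (limma, Benjamini-Hochberg adjusted over 21543 genes). RUNX1T1, a corepressor of the ETO family, was lower in GATA2-/- HEs and higher in GATA2-/- HPCs, with a difference between the differences of 0.87 (SE 0.38, adjusted p = 0.84). CREBBP followed the same directions with 1.18 (SE 0.34, adjusted p = 0.665). ALAS2 did so with 2.51 (SE 0.58, adjusted p = 0.621), at 22.41 and 13.51 TPM in WT HEs, 6.47 and 1.93 TPM in GATA2-/- HEs, 241.24 and 309.83 TPM in WT HPCs, and 418.89 and 372.09 TPM in GATA2-/- HPCs. The erythroid marker sum, which holds ALAS2, was lower in both GATA2-/- HE libraries and overlapped between genotypes in HPCs, and its part was not tested.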

How the results depend on the processing

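Of 441 values of the members under alternative settings, 424 kept their direction and their side of the threshold, and of 288 with 1 library left out, 248 did. The number of members called between HEs and HPCs was 2 in each genotype and became 0 in WT and 0 in GATA2-/- with only the libraries of the comparison in the fit, where 0 of 21543 genes were called; with 1 library left out it ranged from 1 (without WT HE replicate 2) to 4 (without WT HPC replicate 1) in WT and stayed at 2 in GATA2-/-.

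Signs turned only for values that were not called. Rescaling without mitochondrial and globin genes gave 0.014 for TCF3 between HPC genotypes, 0.14 for TCF12 between GATA2-/- HPCs and HEs, 0.038 for SSBP3 between GATA2-/- HPCs and hESCs, and 0.10 for TAL1 and 0.014 for SSBP2 in the difference of genotype differences. Quantile normalization gave 0.035 for TCF12, 0.082 for SSBP3 and 0.067 for TAL1 in the same comparisons, and a pseudocount of 0.1 gave 0.0001 for TAL1. The cause was not tested. Rescaling moved the median of all genes between GATA2-/- HPCs and HEs from 0.03 to 0.15, and relative to the median of all genes 62 of 63 member values kept their sign under it, the exception being LDB1 between HPC genotypes (-0.0029 and 0.013).

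With 1 library left out, the ranges of the values that turned were as follows. Between HE genotypes they were -0.14 to 0.60 for TAL1, -0.27 to 0.030 for LDB1, -0.045 to 0.15 for TCF3 and -0.15 to 0.050 for SSBP3. Between HPC genotypes they were -0.064 to 0.17 for LDB1, -0.46 to 0.29 for TCF3, -0.044 to 0.39 for SSBP2 and -0.30 to 0.43 for SSBP3. From HEs to HPCs TAL1 ranged from -0.089 to 0.30 in WT and from -0.27 to 0.48 in GATA2-/-, and TCF12 from -0.16 to 0.13 in GATA2-/-. Against hESCs they were -0.22 to 0.38 (HEs) and -0.23 to 0.37 (HPCs) for TCF12, and -0.16 to 0.33 (HPCs) for SSBP2. The difference of genotype differences ranged from -0.37 to 0.37 for TAL1, -0.57 to 0.11 for LYL1, -0.33 to 0.029 for LMO2, -0.51 to 0.23 for TCF3, -0.30 to 0.13 for SSBP2 and -0.25 to 0.47 for SSBP3.

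Groups share replicate numbers, but the replicate differences of different groups correlated at only -0.014 to 0.12 across genes, so the numbers were not taken as pairs. The highest values were between genotypes of a stage, 0.12 in HEs and 0.055 in HPCs. A correlation over all genes cannot show whether single genes differ with the replicate number. TAL1, TCF4, TCF12 and SSBP3 were higher in replicate 1 of every HE and HPC group, and the other members had no such order throughout. With the replicate number as a block, the members called numbered 0 between HE genotypes, 0 between HPC genotypes, 2 between WT HPCs and HEs, 2 between GATA2-/- HPCs and HEs, 5 between GATA2-/- HEs and hESCs, 5 between GATA2-/- HPCs and hESCs (4 without it; TCF3 at -0.67 then had an adjusted p of 0.0433) and 0 for the difference of genotype differences. A lone library of a group was assumed to vary like the other groups.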
